A study of Homo sapiens with 31 samples.

Results

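The genes described here let leukemic B-cell precursors find and hold on to the bone marrow: the chemokine receptor CXCR4, the integrin alpha chains ITGA4, ITGA5 and ITGA6, the integrin beta chains ITGB1 and ITGB7, the selectin ligand SELPLG, the hyaluronan receptor CD44 and the adhesion molecule ICAM3. They were named as a list and found in the table by Ensembl identifier, which gave 8 of the 9 listed genes among 30667 identifiers. SELPLG, which encodes PSGL-1, was not analysed here.

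CXCR4 senses CXCL12, a chemokine released by marrow stromal cells, and its signal both steers cells into the marrow and switches integrins to a binding state. Integrins reach the surface only as pairs of an alpha and a beta chain: ITGA4 pairs with ITGB1 to form VLA-4, which binds VCAM1 and fibronectin, and with ITGB7 to form the receptor for MAdCAM-1 of the gut, whereas ITGA5 and ITGA6 pair with ITGB1 to bind fibronectin and laminin. CD44 binds hyaluronan and ICAM3 is a ligand of LFA-1 on other leukocytes.

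NALM-6, an established cell line of B-cell precursor acute lymphoblastic leukemia (ALL), was transduced with 1 of 4 lentiviral vectors, and the samples fell into 12 groups of 2 or 3 by vector and day. EF1a/sh-CTRL (vector X144) and SFFV/sh-CTRL (X146) carried a control short hairpin RNA, and EF1a/sh-XIAP (X153) and SFFV/sh-XIAP (X158) a hairpin against XIAP, an inhibitor of caspases. The hairpin was driven by the EF1a promoter in one pair of vectors and by the stronger SFFV promoter in the other, so that EF1a/sh-XIAP against EF1a/sh-CTRL is called moderate XIAP knockdown (KD) and SFFV/sh-XIAP against SFFV/sh-CTRL strong XIAP KD. Samples were taken 4, 10 and 13 days after transduction, with 10 samples at day 4 and 21 at days 10 and 13. All came from a single cell line, every control carried a vector of its own, and according to the study's methods the transduced cells were sorted by flow cytometry. The sample labels describe growth in vitro, whereas the design text of the series speaks of cells recovered from mouse marrow, so the condition of growth could not be settled. No label says whether replicates were separate cultures, and p-values may therefore measure technical spread alone. RNA was counted at the 3′ end by prime-seq, in which each molecule is counted once by its unique molecular identifier (UMI).

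Total UMIs per sample ranged from 312852 to 1153668 (median 603822). The 10 markers of B-cell precursors on the list together made up 4502 to 5217 UMIs per 1000000 of the sample (CPM) in each sample, while the summed T cell, myeloid, erythroid, stromal and endothelial markers with values stayed at or below 25.6 CPM. XIAP itself, the targeted gene, gave 2 to 14 UMIs per sample. The SFFV/sh-XIAP samples of days 10 and 13 averaged 8.86 ± 3.06 CPM of XIAP (SD, n = 6) and the SFFV/sh-CTRL samples 10.2 ± 4.72 CPM (n = 4), beside 9.62 ± 1.45 CPM (n = 5) with EF1a/sh-XIAP and 10.8 ± 4.67 CPM (n = 6) with EF1a/sh-CTRL. At day 4 XIAP stood at 8.02 and 9.26 CPM (6 and 7 UMIs) with SFFV/sh-XIAP, above the 7.21, 7.27 and 7.55 CPM (7, 4 and 5 UMIs) with SFFV/sh-CTRL, so that it was not lower with the hairpin there. With EF1a/sh-XIAP it was 12.7 and 9.19 CPM at day 4 against 7.12, 16.1 and 10.4 CPM with EF1a/sh-CTRL, which overlap. Strong and moderate KD therefore name the vectors compared and not a fall of XIAP mRNA measured in these samples. The paper reported less XIAP protein by Western blot in NALM-6 with either promoter, with the stronger fall under SFFV. Protein was not measured in the samples used here. XIAP was not called in any comparison, and no fall of its mRNA was shown (limma-voom, strong KD at days 10 and 13, log2 fold change −0.26 ± 0.40 SE, adjusted p = 0.975; at day 4, 0.22 ± 0.51 SE, adjusted p = 0.998). Whether a small fall was missed at this depth was not tested. Principal components set apart replicate 2 of EF1a/sh-XIAP and replicate 2 of SFFV/sh-XIAP at day 10, the libraries with the fewest UMIs, and results were also computed without both.

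The regions around the starts of the most and the least abundant of the genes are shown, with the cytosine and guanine pairs (CpG) in capitals, because the report turns on the distance between them. Both are RefSeq start-site windows of 300 bases on GRCh38.p14, from 250 bases before to 50 after the start, read 5′ to 3′ on the strand of the gene. CXCR4 lies at chr2:136118100-136118399 on the minus strand, at the outermost of its 3 annotated starts, and CD44 at chr11:35138921-35139220 on the plus strand.
CXCR4: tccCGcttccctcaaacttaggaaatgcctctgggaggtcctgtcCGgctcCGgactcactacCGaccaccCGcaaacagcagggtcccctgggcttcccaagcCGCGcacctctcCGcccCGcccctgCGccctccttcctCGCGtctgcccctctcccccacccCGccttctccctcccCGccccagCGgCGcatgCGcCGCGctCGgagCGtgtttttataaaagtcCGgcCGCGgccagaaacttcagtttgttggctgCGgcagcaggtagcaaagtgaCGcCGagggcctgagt
CD44: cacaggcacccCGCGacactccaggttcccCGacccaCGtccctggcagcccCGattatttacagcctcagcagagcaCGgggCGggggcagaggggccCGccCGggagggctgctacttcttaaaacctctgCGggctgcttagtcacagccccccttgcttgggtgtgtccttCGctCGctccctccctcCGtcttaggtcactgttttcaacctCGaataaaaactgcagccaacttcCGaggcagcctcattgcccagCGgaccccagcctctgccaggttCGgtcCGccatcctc
The CXCR4 window held 27 CpG and the CD44 window 18, against a median of 14 over 35116 such windows. As many CpG as at CXCR4 were found in 28.2% of all windows and as many as at CD44 in 44.5%. The letters GGGCGG, on either strand, occurred 3 times at CXCR4 and 2 times at CD44, and 44.95% of all windows held them. The letters TATAAA, on either strand, occurred at CXCR4 in 2 overlapping copies, were not found at CD44, and occurred in 11.5% of all windows. The windows at the other CXCR4 starts, not shown, held 14 and 9 CpG. ITGB1 windows held 39 and 4 and ITGA6 windows 38 and 11, although both genes had lower levels than CXCR4. These counts describe the letters and say nothing of factors that bind there or of the levels of the genes.

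The 8 genes spanned a wide range in NALM-6. CXCR4 was the most abundant at 279 ± 22.6 CPM (SD, n = 31; 77 to 344 UMIs per sample), followed by ITGA4 at 117 ± 10.9 CPM. ITGA6 stood at 28.0 ± 6.93 CPM, ITGA5 at 20.1 ± 6.32 CPM and ITGB1 at 15.5 ± 5.13 CPM. ICAM3 at 5.86 ± 3.81 CPM and ITGB7 at 3.12 ± 2.24 CPM rested on a median of 3 and 2 UMIs per sample, and CD44 at 0.812 ± 1.22 CPM rested on 20 UMIs in all. CXCR4 alone made up 59.5% ± 2.62 of the sum of the 8 genes. In a bulk sample fewer cells that express a gene and less RNA per cell cannot be told apart, and protein at the surface was not measured.

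The order of the levels was firm at the top and loose below. CXCR4 exceeded ITGA4 in 31 of 31 samples, since the lowest CXCR4 value (233 CPM) lay above the highest ITGA4 value (135 CPM), and ITGA4 exceeded ITGA6 in 31 of 31. ITGA6 was above ITGA5 in 25 samples and ITGA5 above ITGB1 in 20, so that these neighbours overlapped widely. ITGB1 was above ICAM3 in 29, ICAM3 above ITGB7 in 22, and ITGB7 above CD44 in 24 samples. Divided by the length of the longest coding transcript the order was the same, at 147 CPM per kilobase (kb) for CXCR4, 27.9 for ITGA4, 4.99 for ITGA6, 4.52 for ITGA5, 4.10 for ITGB1, 2.90 for ICAM3, 1.09 for ITGB7 and 0.142 for CD44. On that scale ITGA6 was above ITGA5 in 18 of 31 samples and ITGA5 above ITGB1 in 18. Each molecule was counted once at the 3′ end, so counts need not scale with transcript length. The order is therefore read from CPM, and the values per kb are a description only.

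CXCR4 (chromosome 2, 136114349 to 136118165, minus strand) varied little. With EF1a/sh-CTRL its level was 274, 268 and 277 CPM at day 4, 309, 296 and 258 CPM at day 10, and 283, 312 and 300.2 CPM at day 13. With EF1a/sh-XIAP it was 283 and 257 CPM at day 4, 286 and 244 CPM at day 10, and 272, 313 and 281 CPM at day 13. These 2 vectors overlapped at every day. With SFFV/sh-CTRL it was 249, 233 and 267 CPM at day 4, 286 and 269 CPM at day 10, and 248 and 266 CPM at day 13. With SFFV/sh-XIAP it was 278 and 296 CPM at day 4, 306, 329 and 299 CPM at day 10, and 291, 267 and 260.0 CPM at day 13. The SFFV/sh-XIAP samples lay above all SFFV/sh-CTRL samples at days 4 and 10 and overlapped with them at day 13. The share of all genes that separated was not computed for day 10 alone. At day 4, where the groups also held 2 and 3 samples, it was 19.2% for this pair of vectors. Nothing is therefore read from the separation of CXCR4 on single days.

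The spread of CXCR4 was about that of counting. Its coefficient of variation over the 31 samples was 8.09%, against 7.87% that counting at these depths alone would give, and the chi-square per degree of freedom against 1 common share of the UMIs was 1.03. The median of that quantity was 1.05 over 17676 genes and 1.25 over the 446 genes with a mean of 200 to 400 CPM, of which 78.7% stood above CXCR4. For ITGA4 it was 0.664, for ITGA6 0.983, for ITGA5 1.18, for ITGB1 0.961, for ITGB7 0.947 and for CD44 1.08. ICAM3 had the highest at 1.54, with a coefficient of variation of 64.9% against 54.3% from counting. These values are descriptions over all samples, with vector and day left in the spread, and they cover counting error only.

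ITGA4 (chromosome 2, 181457202 to 181536187, plus strand), the alpha chain of VLA-4, was the main integrin chain of the list. With EF1a/sh-CTRL its level was 112, 113 and 120 CPM at day 4, 99.4, 95.3 and 109 CPM at day 10, and 126, 113 and 116 CPM at day 13. With EF1a/sh-XIAP it was 123 and 116 CPM at day 4, 124 and 117 CPM at day 10, and 122, 118 and 108 CPM at day 13. The EF1a/sh-XIAP samples were above those of EF1a/sh-CTRL at day 10 alone. With SFFV/sh-CTRL it was 107, 118 and 133 CPM at day 4, 117 and 102 CPM at day 10, and 111 and 130.0 CPM at day 13. With SFFV/sh-XIAP it was 131 and 129.7 CPM at day 4, 135, 121 and 127 CPM at day 10, and 116, 121 and 88.8 CPM at day 13. The SFFV vectors overlapped at days 4 and 13 and were apart at day 10. The share of all genes that separated was not computed for day 10 alone. At day 4, where the groups also held 2 and 3 samples, it was 19.2% for the SFFV pair and 18.7% for the EF1a pair. Nothing is therefore read from the separations of ITGA4 at day 10.

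The alpha chains of the list outnumbered its beta chains in the counts. ITGA4, ITGA5 and ITGA6 summed to 165 ± 13.7 CPM (n = 31), of which ITGA4 was 70.9% ± 4.45, and ITGB1 and ITGB7 summed to 18.6 ± 6.33 CPM, of which ITGB1 was 84.6% ± 10.2. The ratio of the sums had a median of 9.09 and ran from 5.31 to 59.0. The highest ratio came from replicate 2 of EF1a/sh-CTRL at day 4, where ITGB1 had 1 UMI and ITGB7 none. Per kb of coding transcript, a scale that counts at the 3′ end need not follow, the median ratio was 7.36. At days 10 and 13 the ratio was 8.94 ± 2.05 (n = 6) with SFFV/sh-XIAP and 9.40 ± 1.46 (n = 4) with SFFV/sh-CTRL, and 12.1 ± 7.99 (n = 5) with EF1a/sh-XIAP and 9.76 ± 3.66 (n = 6) with EF1a/sh-CTRL, so that the groups overlapped. Among the other integrin chains ITGAE, a partner of ITGB7, stood at 77.6 ± 9.45 CPM and ITGB2, the beta chain of LFA-1, at 33.6 ± 7.94 CPM. ITGAL, the alpha chain of LFA-1, had 8 UMIs in all (0.293 ± 0.522 CPM). Counts at the 3′ end cover only transcript ends that the annotation assigns to a gene, so a ratio between genes is a ratio of counts and not of molecules at the surface.

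**Figure D1:**
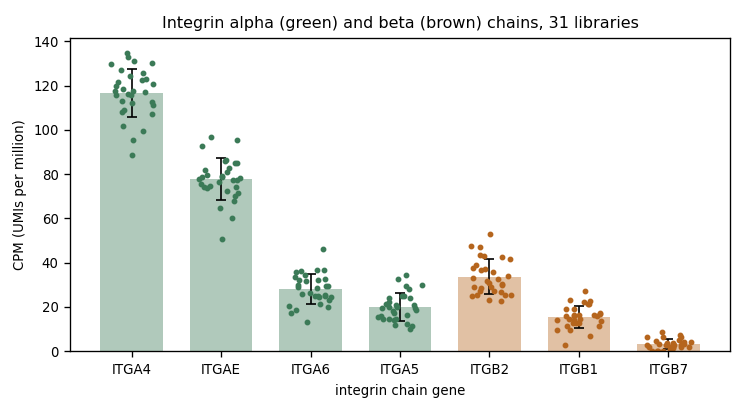
Level of integrin alpha chains (green) and beta chains (brown) in CPM, with bars at the mean, error bars of 1 SD and 1 point for each of the 31 samples (horizontal scatter is for display). ITGA4 averages 117 CPM, whereas ITGB1 averages 15.5 CPM and ITGB7 3.12 CPM.

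Some members lie over other genes. ITGB7 overlaps ZNF740 on the opposite strand, which had 668 UMIs against 69 for ITGB7, and ICAM3 overlaps the antisense gene AC114271.1 with 172 UMIs against 125. ITGA6 (594 UMIs) overlaps antisense genes with 6, 46 and 219 UMIs. ITGA5, ITGB1 and CD44 overlap genes that were not analysed here. Whether strand was used in counting is not given in the sources used here, so reads of ITGB7, ICAM3 and ITGA6 and those of their opposite-strand neighbours may not be told apart. CXCR4 and ITGA4 overlap no annotated gene.

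Strong XIAP KD at days 10 and 13 was the first comparison. CXCR4 stood at 292 ± 25.7 CPM (n = 6) with SFFV/sh-XIAP and 267 ± 15.6 CPM (n = 4) with SFFV/sh-CTRL, with overlapping samples (260.0 to 329 against 248 to 286 CPM). The fitted log2 fold change was 0.09 ± 0.08 SE (adjusted p = 0.941), and its 95% interval of −0.07 to 0.25 spans 0.952-fold to 1.19-fold. For ITGA4 the log2 fold change was 0.02 with an interval from 0.854-fold to 1.20-fold. ITGA6 stood at 29.3 ± 5.83 against 21.8 ± 3.80 CPM (log2 fold change 0.32, 0.851-fold to 1.83-fold; exact permutation test, two-sided, unadjusted p = 0.0857), and the samples overlapped. For ITGA5 the interval was 0.662-fold to 1.50-fold, for ITGB1 0.620-fold to 1.53-fold, for ICAM3 0.497-fold to 2.09-fold and for ITGB7 0.676-fold to 3.83-fold. Without both of the shallowest libraries the log2 fold change was 0.09 for CXCR4, 0.02 for ITGA4 and 0.30 for ITGA6. None of the 7 members tested was called at the adjusted p of at most 0.25 that the study's methods use, where 0.0792% of all 17683 genes tested were called. None had an unadjusted p under 0.05 in limma-voom, edgeR or DESeq2, and none was called by edgeR or DESeq2. The fitted differences were above 0 for 5 and below 0 for 2 members, with a median of 0.03 against −0.02 over all genes.

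Moderate XIAP KD at the same days was compared next. CXCR4 stood at 279 ± 24.9 CPM (n = 5) with EF1a/sh-XIAP and 293 ± 19.8 CPM (n = 6) with EF1a/sh-CTRL, a log2 fold change of −0.05 with an interval from 0.868-fold to 1.07-fold. ITGA4 stood at 118 ± 6.40 against 110 ± 11.1 CPM (log2 fold change 0.09, interval 0.906-fold to 1.25-fold). The samples of both genes overlapped between the vectors. Without both of the shallowest libraries the values were −0.03 for CXCR4 and 0.08 for ITGA4 on the log2 scale. None of the 7 members was called (0.017% of all genes were), and none had an unadjusted p under 0.05 in limma-voom, edgeR or DESeq2. The difference between strong and moderate KD was 0.15 on the log2 scale for CXCR4 (interval −0.07 to 0.37), −0.07 for ITGA4 and 0.55 for ITGA6 (interval −0.20 to 1.29). No member was called there, against 0.00566% of all genes, and none had an unadjusted p under 0.05 in limma-voom, edgeR or DESeq2.

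The promoter by itself was compared in the control hairpin. SFFV/sh-CTRL and EF1a/sh-CTRL gave 267 ± 15.6 and 293 ± 19.8 CPM of CXCR4 at days 10 and 13 (log2 fold change −0.13, interval 0.818-fold to 1.03-fold). An exact permutation test of CXCR4 (two-sided, unadjusted) gave p = 0.0762, and the samples overlapped. No member was called, as against 0.00566% of all genes, and none had an unadjusted p under 0.05 in limma-voom, edgeR or DESeq2. This comparison and those of strong and moderate KD share control samples, so their values stand side by side and are not independent.

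**Figure D2:**
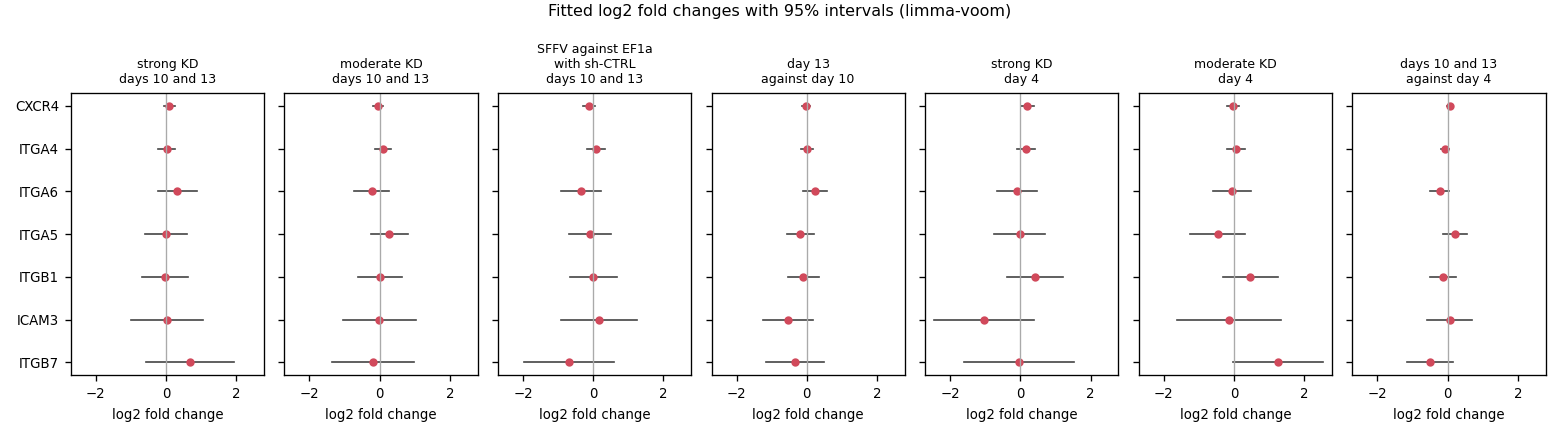
Fitted log2 fold change of 7 genes (points) with 95% intervals (lines) in 7 comparisons, from limma-voom, with a vertical line at 0; CD44 is left out because its counts are too few for a fold. The intervals of CXCR4 and ITGA4 are the narrowest in every panel, and only that of CXCR4 with strong KD at day 4 (0.02 to 0.39) leaves out 0.

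At day 4, CXCR4 was not called with strong KD. Its 278 and 296 CPM with SFFV/sh-XIAP lay above the 249, 233 and 267 CPM with SFFV/sh-CTRL. In this comparison 19.2% of all 17676 genes had groups that did not overlap, so nothing is read from the separation. The log2 fold change of CXCR4 was 0.20 ± 0.09 SE (interval 1.01-fold to 1.31-fold), which did not pass the adjustment (limma-voom, adjusted p = 0.965). The unadjusted p of CXCR4 was 0.0339 in limma-voom, 0.0535 in edgeR and 0.141 in DESeq2. The exact permutation test gave p = 0.2, the smallest that 2 samples against 3 allow when both sides are counted. The effect on CXCR4 at days 10 and 13 minus that at day 4 was −0.09 on the log2 scale (interval −0.33 to 0.15), so a difference between the days was not shown.

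CD44 was the other gene with an unadjusted p under 0.05 at day 4. It had no UMI in either SFFV/sh-XIAP sample, which allows up to 1.99 CPM over the pair when 0 is read as at most 3 counts, and 2, 1 and 1 UMIs in the SFFV/sh-CTRL samples, or 1.83 CPM. Both lie at or under that limit and no fold is given (limma-voom, adjusted p = 0.965). At days 10 and 13 SFFV/sh-XIAP held 7 CD44 UMIs, 4 in one sample and 3 in another, while its other 4 samples had none. The 5 EF1a/sh-XIAP samples of these days had none either, which allows up to 1.06 CPM over the group. CD44 was therefore not ordered between vectors.

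Over the 8 members tested at day 4, no call was made with strong KD, where 0% of all 17676 genes were called, nor with moderate KD, where 0.0396% were. With strong KD 2 members had an unadjusted p under 0.05 in limma-voom, as did 5.01% of all genes, and none in edgeR or DESeq2. With moderate KD none had, in any of these tools. ITGB7 with moderate KD was at 8.49 and 7.14 CPM (6 and 7 UMIs) against 4.07, 0 and 4.33 CPM (4, 0 and 5 UMIs), groups that did not overlap. Its log2 fold change of 1.26 had an interval from 0.988-fold to 5.83-fold (adjusted p = 0.972; exact permutation test, p = 0.2). In all, 56 permutation tests of single genes were run, of which 0 gave an unadjusted p under 0.05. The tests of strong and moderate KD at day 4 could not give one. Groups of that size allow no p below 0.2 when both sides are counted. The count of 0 is therefore read for the other comparisons only. Groups did not overlap for 2 of 8 members with strong KD at day 4 (CXCR4 and CD44), where this held for 19.2% of all 17676 genes, and for 1 of 8 (ITGB7) with moderate KD at day 4, where it held for 18.7%. These counts are near the background and are no result about the members. None of the other comparisons took day 10 alone, and in them no member had groups that did not overlap. With days 10 and 13 pooled the share of all genes was 1.23% with strong KD, 0.424% with moderate KD and 0.973% for SFFV against EF1a. It was 0% for day 13 against day 10 and 0.00566% for the later days against day 4. When the effect of strong KD was compared between day 4 and the later days, no member was called, against 0.0226% of all genes. There 1 member, CD44, had an unadjusted p under 0.05 in edgeR and none in limma-voom or DESeq2.

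No member was called with time after transduction either, although the intervals of the rarer genes were wide. CXCR4 stood at 268 ± 18.1 CPM at day 4 (n = 10), 288 ± 25.4 CPM at day 10 (n = 10) and 281 ± 21.3 CPM at day 13 (n = 11). Days 10 and 13 against day 4 gave a log2 fold change of 0.06 (interval 0.983-fold to 1.10-fold; limma-voom, unadjusted p = 0.169). The permutation test took no account of vector and compared plain means of log2 CPM, which differed by 0.083. With 100000 resamples this permutation test gave an unadjusted p = 0.0635, the smallest of the 56. ITGA4 stood at 120 ± 8.77 CPM at day 4 and 115 ± 11.7 CPM at days 10 and 13 (log2 fold change −0.07, interval 0.876-fold to 1.03-fold). For ITGB7 the interval of 0.448-fold to 1.12-fold left room for a large change. No member was called between day 4 and the later days, although 0.696% of all genes were, with 54 higher and 69 lower later, or 82 and 43 with the size factors of DESeq2. None of the 8 members had an unadjusted p under 0.05 in limma-voom, edgeR or DESeq2, and DESeq2 gave an adjusted p for 1 of them (CXCR4) and for 1570 genes in all. Day 13 against day 10 gave −0.02 for CXCR4 (interval 0.916-fold to 1.06-fold), an interval of 0.418-fold to 1.13-fold for ICAM3, and no called member, against 0.0452% of all genes, with no unadjusted p under 0.05 in any of the 3 tools.

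The partners of these genes were read from 6 lists with 151 genes in all, of which 137 had counts and 109 or 110 passed the filter on low values. The chemokine receptor list, with CXCL12, was led by P2RY8, a receptor that confines B cells in germinal centers, at 118 ± 15.6 CPM, and S1PR2 at 7.73 ± 4.10 CPM. The selectin and glycosylation list was led by the galactosyltransferase B4GALT1 at 362 ± 36.3 CPM and GLG1, a ligand of E-selectin, at 173 ± 22.6 CPM. Of the other adhesion molecules the tetraspanins CD9 and CD81, which associate with integrins in the membrane, were the most abundant at 576 ± 39.5 and 432 ± 28.3 CPM. EZR, which links membrane proteins to actin, at 186 ± 17.9 CPM, and FERMT3, the kindlin that activates integrins in blood cells, at 129 ± 13.5 CPM led the adaptors. CD74 at 643 ± 47.3 CPM and the GTPase RHOA at 394 ± 27.6 CPM led the signaling list. Levels of different genes are given here as CPM, since counts at the 3′ end need not scale with transcript length.

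Of the partners tested between day 4 and the later days, 1 of 109 was called (0.917%, against 0.696% of all genes), which is near the background, and in the other comparisons limma-voom called none. The gene was CD9, which went from 550 ± 11.96 CPM at day 4 (n = 10) to 588 ± 42.1 CPM at days 10 and 13 (n = 21) with a log2 fold change of 0.09 ± 0.03 SE (limma-voom, adjusted p = 0.248). Neither edgeR (adjusted p = 0.596) nor DESeq2 (0.501) called CD9. The call stood at the edge of the threshold: it was kept in 8 of 31 fits that each left out 1 sample and in 2 of 8 other settings, with adjusted p from 0.122 to 0.485 and from 0.0619 to 0.596. The ranges of the 2 periods overlapped (530 to 571 against 482 to 652 CPM). In that comparison 9 of the 109 partners tested (8.26%) had an unadjusted p under 0.05, against 7.15% of all genes. With strong KD at days 10 and 13 none of 110 partners was called by limma-voom, edgeR or DESeq2 and 9 (8.18%) had an unadjusted p under 0.05 in limma-voom, against 5.58% of all genes. The same counts were 0 and 2 with moderate KD, 0 and 5 for SFFV against EF1a, 0 and 3 for strong minus moderate KD and 0 and 7 for day 13 against day 10. At day 4 they were 0 and 6 with strong KD, 0 and 6 with moderate KD, and 0 and 6 for the change of the strong KD effect. In these 7 comparisons the unadjusted p was under 0.05 for 1.82% to 6.36% of the partners and for 4.62% to 5.23% of all genes.

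The genes most like CXCR4, ITGA4 and CD44 across samples were listed by Pearson's correlation of log2 CPM over 31 samples, among 7896 genes with a mean of at least 20 CPM. For CXCR4 they were GSTO1 (r = 0.656), TEDC1 (0.578) and COASY (0.575). For ITGA4 they were B3GNT4 (0.651), ACSS1 (0.612) and CALM2P2 (0.606). For CD44, which rests on 20 UMIs, they were ENSG00000253683 (0.628), PTBP2 (0.624) and KAT2A (0.617). The points share depth, vector and day, the lowest correlations were of the same size (−0.684 for CXCR4), and these values are descriptions only.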

How the data were processed

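UMI counts of NALM-6 libraries made by prime-seq were deposited by the authors as 1 table of raw counts, 30667 Ensembl identifiers by 31 samples, without normalization. The submitters' processing notes name STAR 2.6.0a and human and mouse builds without their roles, and neither the annotation nor the use of strand is given in the sources used here. Groups came from the sample labels. The study's methods set samples aside after a principal component analysis without naming them. Of the 36 combinations of vector, day and replicate number, 5 were not analysed here, so those samples may already be absent, and all 31 samples given were used. Symbols were found for 30548 identifiers. Coordinates, lengths and overlaps were taken from GENCODE 29 on GRCh38, which may not be the annotation of the counts, and start-site windows from RefSeq (8 of 9 members matched).

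CPM values are UMIs per 1000000 of the sample total. For tests, genes were required to exceed 1 CPM in 1/3 or more of the samples entering the fit. Counts were normalized by TMM in edgeR 4.0.16 and fitted with limma-voom (limma 3.58.1, R 4.3.3), with Benjamini-Hochberg adjustment over all genes tested and an adjusted p of at most 0.25. Days 10 and 13 were fitted over 21 samples with vector and day as terms (17683 genes, 7 members, CD44 not passing the filter) and comparisons with day 4 over 31 samples as 12 group means (17676 genes, 8 members). Permutation tests used log2 CPM with a prior count of 2 and had no term for vector or day beyond the groups compared. The 95% intervals of fold changes come from limma, and limits for counts of 0 use 3 counts over the group and cover counting error only. Alternatives were edgeR's quasi-likelihood test, DESeq2 1.42.0, DESeq2 size factors, no filter, a replicate block, an adjusted p of 0.05, all samples as group means, total UMIs as a covariate and each sample left out in turn. Leaving out both of the shallowest libraries was added after seeing the data. The procedure was tested on simulated data. Members, lists and tests were chosen with earlier results of these data known. Genes named were all members, XIAP, the 2 most abundant genes and called genes of each list, and the 3 genes most like CXCR4, ITGA4 and CD44.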

Additional observations from a re-analysis of the deposited data

Results flagged for a closer look

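Within the vectors at days 10 and 13, 31 sets of 4 to 6 values were checked for a sample far from the others, and 3 had one, where chance alone gives about 1 in 20 for measured values. ITGB1 stood at 27.3 CPM (15 UMIs) in replicate 1 of SFFV/sh-XIAP at day 10, with the next of the 6 samples at 16.0 CPM. ICAM3 stood at 11.6 CPM (9 UMIs) in replicate 1 of EF1a/sh-CTRL at day 10, with the next of the 6 samples at 5.42 CPM. CD44 stood at 2.25 CPM in replicate 1 of SFFV/sh-CTRL at day 10, which is 1 UMI, with the other 3 samples at 0; with a single value above 0 it is set apart by construction, so that the chance given does not apply and nothing is read from it. Groups at day 4, of 2 or 3 samples, were not checked.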

How the results depend on the processing

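No alternative called a member: 306 recounts over the 9 comparisons, leave-one-out fits included, all gave 0, with a smallest adjusted p of 0.347. Of 2298 refitted log2 fold changes of members, 9 moved by more than 1 SE, 5 of them in edgeR or DESeq2 and 4 without 1 sample. Levels on TMM-scaled library sizes stayed within 1 SD for 8 of 8 genes. With a replicate block 0 members were called and CXCR4 with strong KD at day 4 kept a log2 fold change of 0.20. Residuals of same-numbered samples in different groups correlated at −0.0038 on average (149 pairs), against 0.0021 for other numbers (290 pairs). The spread of most genes was near that of counting (median chi-square per degree of freedom 1.05). Residuals could then correlate near 0 with or without pairing, so whether the numbers pair samples was not settled. CD9 was no longer called with an adjusted p of 0.05, in edgeR (0.596), in DESeq2 (0.501), with total UMIs as a covariate (0.286), with a replicate block (0.393), without both shallowest libraries (0.404) and in 23 of 31 fits without 1 sample, with log2 fold changes of 0.08 to 0.11 over these settings. Counts over all genes moved widely across the alternatives, leave-one-out fits included. They ran from 0 to 48 (14 as reported) for strong KD at days 10 and 13, 0 to 19 (3) for moderate KD, 0 to 27 (1) for strong minus moderate KD, 0 to 5 (1) for SFFV against EF1a and 0 to 68 (8) for day 13 against day 10. They ran from 0 to 15 (0) for strong KD and 0 to 41 (7) for moderate KD at day 4, 0 to 11 (4) for the change of the strong KD effect, and 30 in DESeq2, which gave an adjusted p for 1570 genes, to 6575 with no filter (123 of 17676) for the later days against day 4. With no filter the median log2 fold change of all genes in the last was 0.14. The cause of these shifts was not tested. Depth limits ICAM3, ITGB7 and CD44 most.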

Other observations

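CD9, the tetraspanin called between the periods at the edge of the threshold, had the following levels in the 4 vectors, and a difference between vectors was not shown. From day 4 to days 10 and 13 its level went from 549 ± 6.77 CPM (n = 3) to 612 ± 34.9 CPM (n = 6) with EF1a/sh-CTRL, from 542 ± 16.0 (n = 2) to 601 ± 19.5 CPM (n = 5) with EF1a/sh-XIAP, and from 545 ± 10.2 (n = 3) to 606 ± 27.7 CPM (n = 4) with SFFV/sh-CTRL. With SFFV/sh-XIAP it went from 565 ± 7.61 (n = 2) to 542 ± 37.6 CPM (n = 6). The difference of the strong KD effect between the periods was −0.19 on the log2 scale for CD9 (limma-voom, interval −0.35 to −0.03, adjusted p = 0.935), and strong KD at days 10 and 13 gave −0.16 (adjusted p = 0.598), so neither passed the adjustment. CD9 was named for this after its values were seen.

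IGLL1, part of the surrogate light chain of the pre-B-cell receptor and a marker of NALM-6, rose by 0.13 on the log2 scale from day 4 to days 10 and 13. It was called by limma-voom (adjusted p = 0.000752), edgeR (0.133) and DESeq2 (0.0693). In this comparison limma-voom called 123 of 17676 genes (0.696%), and DESeq2 gave an adjusted p for 1570 genes. Fits without 1 sample were not read for IGLL1, and changes of the other B-cell precursor markers are not given here.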
